A study of Mus musculus with 24 samples.

Results

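Inflammatory cytokine genes, 10 of the 54446 gene identifiers counted in each library, were followed through m6A sequencing of tumor myeloid cells. The genes are Tnf, Il1a, Il1b, Il1rn, Il6, Il12a, Il12b, Il18, Il23a and Osm, listed as cytokines that activated myeloid cells make, and each symbol was matched to its Ensembl identifier in the count files. The rule that lists them uses no measured value, but they were chosen with earlier results of these data known. The libraries came from CD11b+ myeloid cells of MC38 tumors, a transplanted mouse colon carcinoma, in WT mice (Ythdf2 floxed on both alleles, without Cre) or cKO mice (the same floxed alleles with Cre expressed from the Lyz2 locus, a gene of macrophages and neutrophils). Tumors were unirradiated (Ctrl) or received a single dose of 20 Gy (IR), with cells taken 3 days after irradiation. All groups therefore share the floxed Ythdf2 alleles and the MC38 tumor. Mice were C57BL/6J animals of both sexes, and each replicate pooled the cells of several mice. For each of the 4 conditions there were 3 libraries of polyadenylated RNA (Input) and 3 of the fragments that an m6A antibody pulled down (IP), which gives 8 groups and 24 libraries. Replicates are described as technical in one passage of the methods and as biological in another, so SDs, SEs and p-values below measure the spread between libraries.

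TNF and the interleukin-1 family are early alarm signals of macrophages, monocytes and neutrophils. IL-1α and IL-1β act on the same receptor, the product of Il1rn blocks that receptor, and IL-1β and IL-18 are cut to their active forms by inflammasome caspases. IL-6 and oncostatin M (Osm) signal through the shared receptor chain gp130. Il12b encodes the p40 chain, which pairs with p35 (Il12a) to form IL-12 and with p19 (Il23a) to form IL-23, cytokines by which dendritic cells and macrophages direct T cells. Many cytokine mRNAs are short-lived, because proteins such as tristetraprolin (Zfp36) bind AU-rich repeats of the letters ATTTA in their 3′ UTRs and start their decay. N6-methyladenosine (m6A), which the reader protein YTHDF2 recognises, is another mark through which mRNAs are sent to decay.

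The targeted gene did not follow its labels. Levels of single genes are given in CPM, counts-per-million scaled between libraries by edgeR's TMM factors. Ythdf2 was at 95.6 to 106.7 CPM in the 6 WT Inputs. It was higher, at 174.2 to 230.8 CPM, in the 6 cKO-labelled Inputs, and these counts do not separate the floxed exon from the rest of the gene. Lyz2, the gene that carries Cre in cKO mice, was at 20060 to 21460 CPM in the WT Inputs and at 296.1 to 413.7 CPM in the cKO Inputs. In the IP libraries it was high in WT Ctrl (15640 to 16500 CPM) and in the libraries labelled cKO IR (19520 to 19810 CPM), and low in cKO Ctrl (86.7 to 91.8 CPM) and in those labelled WT IR (88.5 to 91.1 CPM). The irradiated IP groups thus carry the Lyz2 level of the other genotype and are called WT IR and cKO IR "by label" below. Library totals ran from 65180075 to 83661576 gene counts in Inputs and from 68846321 to 86421888 in IPs. Itgam, which encodes CD11b, and the leukocyte gene Ptprc together reached 909 to 1140 CPM in every Input, while the keratin and Epcam list of tumor epithelium stayed at or under 1.24 CPM. The replicates of each group differed by more than counting noise, and WT IR Input replicate 1 stood furthest from its group.

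The 3′ UTRs of the cytokine genes were dense in ATTTA. Counted on the sense strand of each gene's principal transcript, Tnf held 8 copies, Il6, Il12a, Il12b, Il23a and Osm 6 each, Il1b 4, Il1a 3, Il18 1 and Il1rn none. Overlapping copies were counted separately. Per kilobase that was 14.05 for Il6, 12.17 for Il12a and 10.47 for Tnf, against a median of 1.25 over the 3′ UTRs of 12921 genes. Of those 3′ UTRs 20.1% held at least 5 copies, and 6 of the 10 cytokine genes did. The longer form TATTTAT was present in 28.1% of all 3′ UTRs and in 8 of the 10. The 30-base windows with the most copies are shown for 5 members because they let the reader see the repeat itself (GRCm38, 5′ to 3′ on the sense strand, with ATTTA in capitals). They lie at chr17:35199679-35199708 (minus strand) for Tnf, chr2:129364808-129364837 (minus) for Il1b, chr5:30019677-30019706 (plus) for Il6, chr3:68698434-68698463 (plus) for Il12a and chr11:44413473-44413502 (plus) for Il12b.
Tnf: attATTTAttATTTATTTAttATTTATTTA
Il1b: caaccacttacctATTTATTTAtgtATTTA
Il6: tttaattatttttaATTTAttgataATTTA
Il12a: gcctATTTAtATTTATTTAttttctATTTA
Il12b: ATTTAagtaATTTAtgtATTTAttaATTTA
The Tnf window has 5 copies, of which 4 form overlapping pairs, and the Il6 window has 2 among other A and T letters. Il1rn, the one antagonist of the group, was also the one member without the repeat.

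Promoters were read for 8 of the 10 genes from RefSeq sequences on GRCm38, over the 250 bases before the transcript start. A single spelling of an NF-κB-type site (GGGA, any base, then TTTCC) was searched on both strands. It was in 0.34% of 27025 promoters and among the 8 members in Il6 alone, beginning 44 bases before the start. Other spellings were not searched, so a promoter without this one may hold another. TATAAA within the last 50 bases before the start was in 2.88% of promoters and in those of Tnf, Il1a and Il1b. The 130 bases before the start of Il6 (chr5:30012984-30013113, plus strand) and Tnf (chr17:35202008-35202137, minus strand) are printed with the matched motif in capitals.
Il6: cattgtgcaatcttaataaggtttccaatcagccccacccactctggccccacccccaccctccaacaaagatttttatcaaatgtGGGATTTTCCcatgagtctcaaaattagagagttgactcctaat
Tnf: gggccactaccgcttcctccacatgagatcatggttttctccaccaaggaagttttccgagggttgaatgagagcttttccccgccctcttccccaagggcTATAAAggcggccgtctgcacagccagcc
A match describes the letters and was not taken as a bound site.

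In WT Ctrl Inputs the cytokine genes spanned a wide range of abundance. Per kilobase of merged exon length, the mean level was 93.7 ± 3.32 CPM for Tnf, 72.7 ± 2.95 for Il1b, 31.2 ± 0.807 for Il1rn, 25.9 ± 0.547 for Il12b and 15.9 ± 0.619 for Il1a (SD, n = 3). Il18 at 2.99 ± 0.223 and Osm at 2.77 ± 0.177 CPM per kilobase did not differ beyond their spread. Il6 at 1.14 ± 0.0367 and Il12a at 0.881 ± 0.0797 CPM per kilobase followed. Il23a was near the limit of detection at 0.0119 ± 0.00576 CPM per kilobase. In the cKO IR Inputs Il1b (151.8 ± 1.02 CPM per kilobase) exceeded Tnf (125.8 ± 1.24), the reverse of their order in WT Ctrl.

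Tnf (chromosome 17, 35199381 to 35202007, minus strand, GRCm38) encodes tumor necrosis factor. Its Input levels were 157.4, 147.3 and 155.8 CPM in the WT Ctrl libraries, 152.6, 157.3 and 152.5 in WT IR, 170.6, 167.6 and 173.9 in cKO Ctrl, and 208.5, 204.7 and 205.2 in cKO IR. The WT groups overlapped, and cKO Ctrl and then cKO IR lay above both.

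The IL-1 receptor ligands followed different courses. Il1b (chromosome 2, 129364570 to 129371139, minus strand), the secreted pro-inflammatory ligand, was at 138.7, 132.9 and 144.1 CPM in the WT Ctrl libraries, 130.8, 137.7 and 141.5 in WT IR, 232.8, 234.7 and 227.4 in cKO Ctrl, and 288.5, 291.7 and 288.1 in cKO IR. Like Tnf it overlapped between the WT groups and was highest in cKO IR. Il1a (chromosome 2, 129299610 to 129309972, minus strand), which is largely held inside or on the cell, was at 31.6, 30.2 and 32.6 CPM in the WT Ctrl libraries, 45.1, 53.3 and 52.8 in WT IR, 46.0, 48.7 and 46.0 in cKO Ctrl, and 70.0, 70.9 and 68.2 in cKO IR. WT IR and cKO Ctrl overlapped, with WT Ctrl below and cKO IR above them. Il1a and Il1b overlap the antisense genes Gm14023 and Il1bos, and the reads were aligned with strand kept.

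Il1rn (chromosome 2, 24336853 to 24351494, plus strand) encodes the receptor antagonist. It was at 170.4, 178.1 and 170.2 CPM in the WT Ctrl libraries, 163.8, 139.9 and 148.1 in WT IR, 225.4, 218.0 and 232.1 in cKO Ctrl, and 224.0, 207.6 and 205.2 in cKO IR. Both cKO groups lay above both WT groups, and the cKO groups overlapped each other. Il18 (chromosome 9, 50554827 to 50581840, plus strand), whose product drives interferon-γ production, was at 3.11, 2.84 and 3.29 CPM in the WT Ctrl libraries, 2.13, 1.96 and 2.28 in WT IR, 4.24, 4.10 and 4.62 in cKO Ctrl, and 3.80, 2.99 and 3.37 in cKO IR. Irradiated libraries were below their unirradiated counterparts under both genotype labels, and WT Ctrl overlapped cKO IR. Its locus overlaps Bco2 and Tex12.

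The gp130 cytokines were less abundant. Il6 (chromosome 5, 30013114 to 30019981, plus strand) was at 2.75, 2.71 and 2.88 CPM in the WT Ctrl libraries, 4.16, 3.51 and 4.47 in WT IR, 4.60, 4.90 and 4.44 in cKO Ctrl, and 9.38, 9.44 and 9.41 in cKO IR. The cKO IR libraries stood far above all others, and WT IR overlapped cKO Ctrl. Osm (chromosome 11, 4236420 to 4241026, plus strand) was at 6.75, 6.09 and 6.02 CPM in the WT Ctrl libraries, 7.62, 8.03 and 6.72 in WT IR, 5.61, 5.63 and 5.83 in cKO Ctrl, and 6.07, 6.80 and 7.03 in cKO IR. It was the one member whose cKO Ctrl libraries all lay below the WT Ctrl libraries.

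Of the IL-12 family, Il12b (chromosome 11, 44400063 to 44414033, plus strand) was at 50.58, 49.96 and 52.06 CPM in the WT Ctrl libraries, 87.4, 88.1 and 82.7 in WT IR, 60.0, 58.4 and 59.3 in cKO Ctrl, and 115.8, 116.9 and 110.7 in cKO IR. No groups overlapped, and both irradiated groups were above both unirradiated groups. Il12a (chromosome 3, 68690644 to 68698547, plus strand) was at 1.65, 1.40 and 1.45 CPM in the WT Ctrl libraries, 1.01, 1.28 and 1.25 in WT IR, 1.99, 2.06 and 2.48 in cKO Ctrl, and 3.83, 3.60 and 2.93 in cKO IR. Again no groups overlapped, with WT IR lowest and cKO IR highest. Il23a (chromosome 10, 128296139 to 128298752, minus strand) had 2, 3 and 1 counts in WT Ctrl, 8, 3 and 1 in WT IR, 26, 9 and 10 in cKO Ctrl, and 6, 10 and 13 in cKO IR. Each cKO library of either condition was above each WT Ctrl library, and the other groups overlapped.

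**Figure D1:**
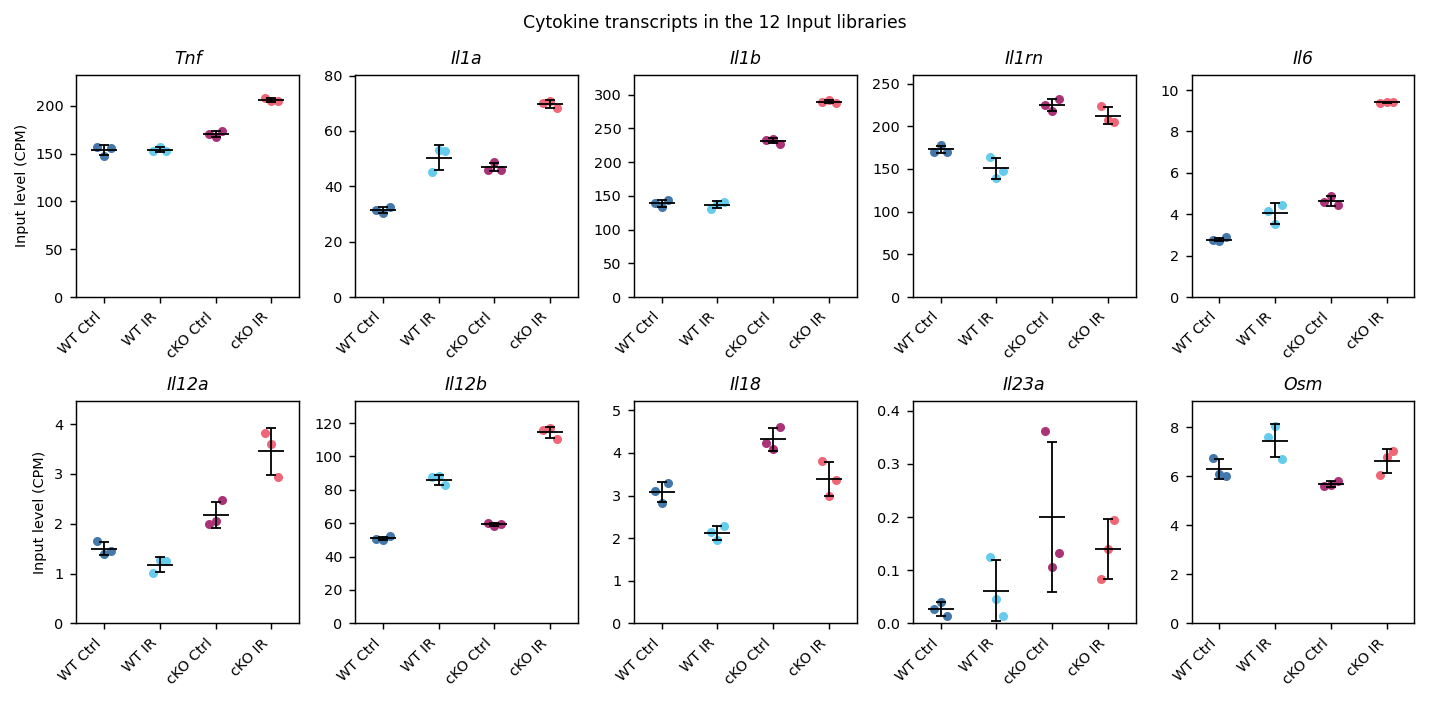
Input level of each cytokine gene in CPM (vertical axes from 0, one scale per gene) for the 4 groups, with points for the 3 libraries and bars for the mean ± SD. Tnf, Il1b, Il6 and Il12a are highest in cKO IR, Il12b is high in both irradiated groups, and Osm lies between 5.61 and 8.03 CPM.

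Irradiation of WT tumors raised Il12b 1.69-fold, Il1a 1.60-fold and Il6 1.46-fold and lowered Il18 to 0.69-fold and Il1rn to 0.871-fold, while Tnf (log2 change 0.01, edgeR adjusted p = 0.921) and Il1b (−0.02, 0.737) did not pass the test. Of the 10 members, all above the count filter, 4 were higher and 2 lower at an edgeR adjusted p under 0.05, beside 14.7% of 16090 tested genes called higher and 17.0% called lower. The log2 change was 0.76 ± 0.0393 for Il12b (SE, edgeR adjusted p = 7.69e-12), 0.68 ± 0.0562 for Il1a (8.51e-09), 0.54 ± 0.106 for Il6 (0.000466), −0.53 ± 0.13 for Il18 (0.00331) and −0.20 ± 0.0483 for Il1rn (0.00317). Osm, the fourth higher member, was at the edge with 0.25 ± 0.0928 (0.049). That call was lost in 12 of its 18 alternatives. It was lost when WT Ctrl replicate 2 (edgeR adjusted p = 0.138) or 3 (0.146), WT IR replicate 1 (0.0872) or 2 (0.187), any cKO Ctrl library (0.0576 to 0.0596) or cKO IR replicate 2 (0.0583) or 3 (0.0521) was left out. Il12a at −0.34 ± 0.175 (0.149) was not called, although its WT IR libraries all lay below its WT Ctrl libraries, and Il23a at 1.13 ± 0.967 (0.398) was not called. The median log2 change was 0.13 over the members and 0.01 over all genes.

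In cKO-labelled cells irradiation raised 6 members and lowered 1, beside 21.8% of genes called higher and 23.8% called lower. Il6 rose 2.02-fold, Il12b 1.93-fold, Il12a 1.59-fold, Il1a 1.49-fold, Il1b 1.25-fold and Tnf 1.21-fold, and Il18 fell to 0.784-fold. The log2 change was 1.02 ± 0.0966 for Il6 (SE, edgeR adjusted p = 3.36e-08), 0.95 ± 0.0389 for Il12b (2.92e-13), 0.66 ± 0.157 for Il12a (0.0015), 0.57 ± 0.0547 for Il1a (3.68e-08), 0.32 ± 0.0362 for Il1b (3.48e-07), 0.27 ± 0.0338 for Tnf (1.25e-06) and −0.35 ± 0.122 for Il18 (0.0237). Il1rn (−0.09 ± 0.0479, 0.162), Osm (0.22 ± 0.0935, 0.0611) and Il23a (−0.51 ± 0.674, 0.576) did not pass. The Il18 call was lost without cKO Ctrl replicate 3 (edgeR adjusted p = 0.0951) or cKO IR replicate 2 (0.119) or 3 (0.0563). Il1rn passed without WT IR replicate 1 (0.0328), and Osm without cKO IR replicate 1 (0.0318). The Il23a change turned to 0.22 without cKO Ctrl replicate 1. The median over the members was 0.30, against 0.01 over all genes.

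The difference between these irradiation effects was tested as an interaction, the effect in cKO minus that in WT. It was above 0 for 5 members and below 0 for none, beside 15.0% of genes called above and 15.2% called below. Of these Il12a differed most, by 1.01 ± 0.235 (log2, ± SE, edgeR adjusted p = 0.00241), followed by Il6 (0.47 ± 0.143, 0.0159), Il1b (0.34 ± 0.0517, 3.99e-05), Tnf (0.27 ± 0.048, 0.00024) and Il12b (0.19 ± 0.055, 0.0114). Il1a (−0.11, 0.334), Il1rn (0.11, 0.232), Il18 (0.18, 0.493), Osm (−0.03, 0.917) and Il23a (−1.64, 0.315) did not pass. Without WT IR Input replicate 1, Il1a (−0.18, edgeR adjusted p = 0.0173) and Il1rn (0.18, 0.00572) passed as well. The members' median was 0.19, and that of all genes was 0.

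Compared with WT, the cKO-labelled Inputs carried more cytokine RNA in both conditions. In unirradiated tumors Il1b was 1.67-fold, Il6 1.67-fold, Il1a 1.49-fold, Il12a 1.45-fold, Il18 1.40-fold, Il1rn 1.30-fold, Il12b 1.17-fold and Tnf 1.11-fold higher, and Osm, at 0.905-fold, was not called. Together with Il23a, 9 members were called higher and none lower, beside 8.05% of genes called higher and 7.61% called lower. The log2 difference was 0.74 ± 0.0367 for Il1b (SE, edgeR adjusted p = 1.47e-11), 0.74 ± 0.104 for Il6 (3.12e-05), 0.58 ± 0.056 for Il1a (2.79e-07), 0.38 ± 0.048 for Il1rn (8.62e-06), 0.49 ± 0.122 for Il18 (0.00863), 0.22 ± 0.0394 for Il12b (0.000465) and 0.15 ± 0.0339 for Tnf (0.00324). Il12a, at 0.54 ± 0.165 (0.0295), was no longer called once WT Ctrl replicate 2 (0.105) or 3 (0.0905) or cKO Ctrl replicate 2 (0.052) or 3 (0.143) was left out. Il23a passed the count filter only through cKO libraries, so its call adds nothing to the count. Over its libraries there were 45 counts in cKO Ctrl and 6 in WT Ctrl, a depth-corrected ratio of 7.28 with a 95% exact binomial interval of 3.10 to 20.9 that covers counting error only. Its edgeR adjusted p of 0.0222 rose to 0.0691 without WT Ctrl replicate 1, to 0.0921 without WT Ctrl replicate 3 and to 0.145 without cKO Ctrl replicate 1. The members' median was 0.51 and that of all genes −0.001.

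In irradiated tumors 8 members were called higher in cKO and none lower, where 23.9% of genes were called higher and 23.8% lower. Il12a was 2.93-fold, Il6 2.33-fold and Il1b 2.12-fold higher, Il18 1.59-fold, Il1rn 1.41-fold, Il1a 1.38-fold, Tnf 1.34-fold and Il12b 1.33-fold. The log2 difference was 1.55 ± 0.168 for Il12a (SE, edgeR adjusted p = 1.87e-07), 1.22 ± 0.0988 for Il6 (3.45e-09), 1.08 ± 0.0369 for Il1b (2.23e-14) and 0.42 ± 0.034 for Tnf (3.33e-09). Il23a (1.17 ± 0.777, 0.224) and Osm (−0.17 ± 0.0928, 0.146) were not called. The members' median was 0.58, and that of all genes −0.003. This comparison shares its cKO IR and WT IR libraries with the irradiation contrasts, so the contrasts are not independent of one another.

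**Figure D2:**
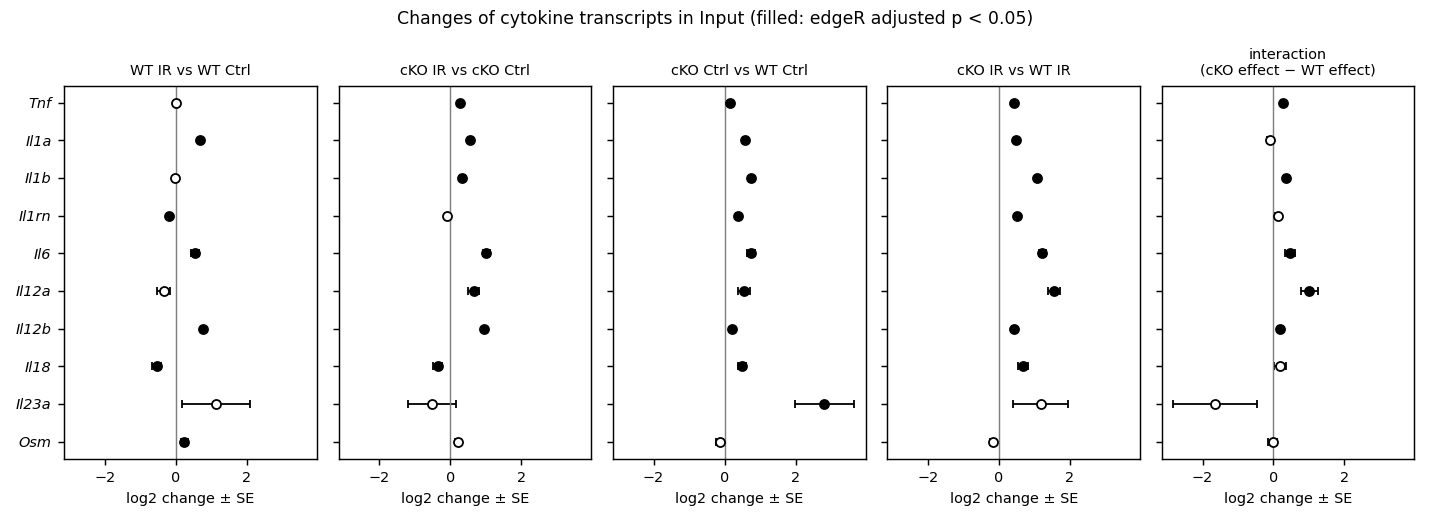
Log2 change of each cytokine gene in Inputs (horizontal axes, common scale) in the 4 contrasts and the interaction, with bars for the SE and filled points for an edgeR adjusted p under 0.05. The points of the genotype contrasts lie to the right of 0 for every gene except Osm, and the 5 filled interaction points lie between 0.19 and 1.01.

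Markers of other cell types moved between the same groups. The 6 neutrophil markers summed to 1550 to 1640 CPM in WT Ctrl Inputs, 319 to 360 in WT IR, 671 to 687 in cKO Ctrl and 298 to 315 in cKO IR, with all 6 called lower after irradiation under both labels. The 5 dendritic cell markers, most abundantly Ccr7, summed to 404 to 414 CPM in the WT Ctrl libraries, 619 to 638 in WT IR, 460 to 467 in cKO Ctrl and 702 to 737 in cKO IR. Of the 3 dendritic cell markers tested, 3 were called higher after irradiation in WT and 2 in cKO. In cKO against WT, 1 was higher and 1 lower in Ctrl, and 1 higher and 2 lower in IR (median log2 difference −0.23), while the sum was higher in cKO in both conditions. Of the 5 markers in the sum, Xcr1 was at 0 in the WT IR and cKO Ctrl Inputs, and Cd209a in WT IR. The 6 macrophage markers summed to 3850 to 3970 CPM in WT Ctrl Inputs and 3550 to 3960 in WT IR. They summed to 4060 to 4180 CPM in cKO Ctrl and 4060 to 4190 in cKO IR. After irradiation 4 were called lower and none higher in WT, and 5 lower and 1 higher in cKO. In cKO against WT, 5 were higher and 1 lower in Ctrl, and 4 higher and 1 lower in IR. The 4 monocyte markers summed to 1090 to 1100 CPM in WT Ctrl and 1020 to 1050 in WT IR. Their sum was 1290 to 1300 CPM in cKO Ctrl and 753 to 760 in cKO IR. Red cell globins reached 24.5 to 26.4 CPM in WT IR Inputs and at most 0.0359 CPM in the other Inputs. The 3 mast cell and basophil markers summed to 6.63 to 7.65 CPM in WT Ctrl and to at most 0.31 CPM in the irradiated Inputs. T cell markers summed to 1.43 to 2.81 CPM, B cell markers to at most 1.15 CPM, NK cell markers, led by Klrk1, to 6.05 to 10.3 CPM, endothelial markers to 1.65 to 3.72 CPM and fibroblast markers to at most 0.575 CPM. Their part in the cytokine differences was not tested. In bulk RNA a smaller share of cells that make a cytokine and less cytokine RNA per cell cannot be told apart. The labels name no batch or date.

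Across the 12 Inputs some members varied together. Pearson's r of log2 CPM was 0.94 between Tnf and Il12a, 0.94 between Il1b and Il12a, 0.93 between Tnf and Il1b, 0.93 between Il6 and both Tnf and Il1a, 0.91 between Il12b and Il1a and 0.91 between Il1rn and Il18. Il12b and Il1rn gave 0.05, and Il18 and Osm −0.86. These describe 12 libraries in 4 groups that share depth and cell makeup. Among 11661 genes with a mean of at least 1 CPM, the patterns most like Tnf were those of Bst2 (r = 0.987), the copper transporter gene Slc31a2 (0.987) and the chemokine Ccl3 (0.986). For Il1b they were Ythdf2 itself (0.992), Pnp (0.991) and the acute-phase gene Saa3 (0.991), for Il12b Gm13546 (0.996), Samsn1 (0.994) and the OX40 ligand Tnfsf4 (0.994), and for Il1rn the complement gene C1qb (0.984), the lipopolysaccharide co-receptor Cd14 (0.984) and Lpcat2 (0.983). Il6 ranked with Tnfaip8 (0.982), the Fc receptor gene Fcgr3 (0.980) and the chemokine Ccl6 (0.979), Il1a with Best1 (0.979), Zfp52 (0.979) and Tiparp (0.978), and Il12a with Lox (0.978), Ppp4c (0.974) and Dnaja1 (0.974). Il18 was nearest to Gpr84 (0.972), Herpud1 (0.968) and Lmo2 (0.965), Osm to Ust (0.910), Plcl1 (0.906) and Heatr9 (0.899), and Il23a to Trim26 (0.912), Ubox5 (0.894) and Tmem268 (0.888).

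Lists of genes around the cytokines were read in the same Input fit. Of 13 receptor genes 12 were tested, and Osmr was below the count filter. After irradiation 4 were higher and 4 lower in WT, where 14.7% and 17.0% of all genes were, and 2 higher and 6 lower in cKO, where 21.8% and 23.8% were. The list's median log2 change was 0.003 in WT and −0.051 in cKO. The IL-6 receptor gene Il6ra changed by −0.55 ± 0.0389 (log2, ± SE, edgeR adjusted p = 8.56e-10) in WT cells and by −0.88 ± 0.0392 (8.41e-13) in cKO cells. In WT the IL-18 receptor chain Il18rap fell (−0.92, 1.18e-08) and gp130 (Il6st) rose (0.27, 8.2e-06), and in cKO the TNF receptor genes Tnfrsf1a (−0.38, 2.06e-08) and Tnfrsf1b (−0.15, 2.43e-05) fell. Between genotypes 2 receptors were higher and 2 lower in Ctrl (8.05% and 7.61% of all genes), among them Il18rap (−0.78, 3.06e-07), Tnfrsf1b (0.17, 4.33e-05) and the decoy receptor Il1r2 (−0.73, 0.00106). In IR none was higher and 4 were lower (23.9% and 23.8% of all genes), led by Il6st (−0.43, 6.59e-09), Il6ra (−0.29, 4.75e-06) and Il12rb2 (−0.39, 6.96e-05). In the interaction 2 were above 0 and 5 below (15.0% and 15.2% of all genes), led by Il6st (−0.38, 1.02e-05), Il6ra (−0.34, 8.68e-05) and Il18rap (0.67, 0.000107).

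The 9 genes of cytokine processing and release, which encode inflammasome parts, caspases, the pore protein gasdermin D, the TNF sheddase and the IL-18 binding protein, counted 1 higher and 2 lower after irradiation in WT, near the shares over all genes of 14.7% and 17.0%: Gsdmd (−0.15, edgeR adjusted p = 0.00748), Pycard (−0.15, 0.0103) and Il18bp (0.23, 0.0117). In cKO 5 were higher and 3 lower (21.8% and 23.8% of all genes), led by the inflammasome adaptor Pycard (0.32, 1.76e-06), Casp4 (0.51, 2.33e-06) and Nlrp3 (−0.22, 1.15e-05). Without WT IR replicate 1 the number called in WT was 5 instead of 3. Between genotypes 4 were higher and 1 lower in Ctrl (8.05% and 7.61% of all genes), led by Nlrp3 (0.33, 3.27e-07), Gsdmd (0.21, 0.000742) and Pycard (0.14, 0.0264). Leaving out any WT Ctrl library or cKO Ctrl replicate 1 or 3 reduced these 5 to 2 or 3. In IR 5 were higher and 1 lower (23.9% and 23.8% of all genes), led by Pycard (0.61, 2.89e-10), Casp4 (0.65, 1.13e-07) and Gsdmd (0.26, 1.71e-05). In the interaction 4 were above 0 and 1 below (15.0% and 15.2% of all genes), led by Pycard (0.47, 4.46e-06), Nlrp3 (−0.31, 3.92e-05) and Casp4 (0.63, 3.97e-05), and 3 of these 5 were called without WT Ctrl replicate 2 or cKO Ctrl replicate 1 or 3.

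Of 8 genes whose proteins bind AU-rich elements or act in cytokine mRNA decay, 4 were higher and 3 lower after irradiation in WT (14.7% and 17.0% of all genes), among them Zfp36l2 (−0.35, edgeR adjusted p = 2.39e-08), Zfp36l1 (0.35, 5.25e-06) and Hnrnpd (−0.25, 1.35e-05). In cKO none was higher and 6 were lower (21.8% and 23.8% of all genes), led by Zfp36l2 (−0.70, 8.76e-13), Khsrp (−0.46, 1.84e-09) and Hnrnpd (−0.43, 5.38e-09). The count in WT was 4 instead of 7 without WT Ctrl replicate 2. In cKO against WT, 1 was higher and 1 lower in Ctrl (8.05% and 7.61% of all genes), Zfp36l1 (0.18, 0.0117) and Rc3h1 (−0.20, 0.00655), of which 1 was called without WT Ctrl replicate 2 or cKO Ctrl replicate 2. In IR none was higher and 6 lower (23.9% and 23.8% of all genes), led by Zfp36l2 (−0.36, 9.15e-09), Rc3h1, which encodes roquin-1 (−0.52, 2.27e-08), and Zfp36 (−0.39, 4.81e-07). The interaction was above 0 for none and below 0 for 7 of the 8 (15.0% and 15.2% of all genes), with a median of −0.32, led by Zfp36l2 (−0.35, 4.53e-06), Zfp36l1 (−0.46, 1.97e-05) and Zfp36 (−0.42, 4.43e-05).

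In the m6A IP libraries the cytokine genes took another order. The antibody is used to retain methylated fragments, and a value of IP over Input is relative to the other transcripts of the same libraries. Marker lists also differed between Inputs and IPs. In WT Ctrl the 6 macrophage markers summed to 3850 to 3970 CPM in Inputs and 992 to 1010 in IPs. The 4 monocyte markers summed to 1090 to 1100 and 1670 to 1720 CPM. What set the order of the cytokine genes was not tested. Osm was retained most among the well-counted members in each group, and Il12a and Il12b were nearly lost from the IPs. Osm stood at 6.02 to 6.75 CPM in the WT Ctrl Inputs and at 30.5, 29.8 and 31.2 CPM in the WT Ctrl IPs. Its other IP levels were 30.9, 30.3 and 29.2 CPM in WT IR by label, 29.5, 31.3 and 29.6 in cKO Ctrl, and 32.7, 33.5 and 32.5 in cKO IR by label. All IP libraries were far above all Input libraries for this gene. The log2 ratio of IP to Input was 2.17 ± 0.0655 in WT Ctrl (SE, edgeR adjusted p = 7.46e-25), 2.29 ± 0.066 in cKO Ctrl (2.23e-25), 1.91 ± 0.0649 in WT IR by label (2.85e-23) and 2.21 ± 0.0653 in cKO IR by label (5.4e-25).

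Il12b was at 49.96 to 52.06 CPM in WT Ctrl Inputs and at 2.62, 1.84 and 1.59 CPM in WT Ctrl IPs. The other IP groups held 2.79, 2.58 and 2.74 CPM (WT IR by label), 1.79, 1.81 and 1.46 CPM (cKO Ctrl) and 3.40, 4.13 and 3.10 CPM (cKO IR by label). Its log2 IP over Input lay between −4.77 and −5.25 in the 4 groups, with edgeR adjusted p values from 1.53e-32 to 1.02e-30. Il12a had 1, 11 and 3 counts in the WT Ctrl IPs, 3, 4 and 7 in WT IR by label, 0, 5 and 0 in cKO Ctrl, and 12, 12 and 5 in cKO IR by label. A count of 0 allows up to 3 counts in such a library. Its pooled IP over Input ratio was 0.0463 in WT Ctrl (95% exact binomial interval 0.0256 to 0.0774), 0.0558 in WT IR by label (0.0301 to 0.0956), 0.0106 in cKO Ctrl (0.00342 to 0.0249) and 0.0341 in cKO IR by label (0.0226 to 0.0493). The ratio of the 2 IL-12 subunit genes was thus far below that of any other member in each group.

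Tnf was at 76.3 ± 3.34 CPM in WT Ctrl IPs, 75.1 ± 1.51 in WT IR by label, 74.8 ± 3.03 in cKO Ctrl and 77.8 ± 1.08 in cKO IR by label (SD, n = 3), and its IP groups overlapped. Its log2 IP over Input was −1.12, −1.14, −1.31 and −1.51 in that order of groups. Il1a was at 62.9 ± 2.45, 60.2 ± 3.4, 58.0 ± 4.12 and 73.3 ± 0.677 CPM in the same order, and the libraries labelled cKO IR lay above all others. Its log2 IP over Input was 0.89 ± 0.0546 in WT Ctrl (SE, edgeR adjusted p = 2.96e-16), 0.15 ± 0.0535 in WT IR by label (0.0113), 0.19 ± 0.0533 in cKO Ctrl (0.00247) and −0.03 ± 0.0523 in cKO IR by label (0.589). The WT IR call was lost without WT IR Input replicate 1 (0.160) or WT IR IP replicate 3 (0.102), and the cKO Ctrl call without cKO Ctrl IP replicate 1 (0.0658).

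Il1b, Il1rn, Il6 and Il18 had unirradiated IP groups that did not overlap. How many of all genes share this was not counted. Il1b was at 116.2, 118.4 and 112.3 CPM in the WT Ctrl libraries, 60.0, 59.5 and 59.0 in WT IR by label, 74.1, 69.0 and 66.4 in cKO Ctrl, and 91.7, 94.4 and 89.9 in cKO IR by label. No groups overlapped, and WT Ctrl, with one of the lowest Input levels, had the highest IP level. Il1rn was at 330.8, 329.6 and 329.8 CPM in the WT Ctrl libraries, 427.2, 437.2 and 435.4 in WT IR by label, 280.3, 290.5 and 283.2 in cKO Ctrl, and 357.3, 354.8 and 353.7 in cKO IR by label. Here too no groups overlapped, with the irradiated libraries above the unirradiated ones. Il6 was at 4.23, 4.16 and 4.39 CPM in the WT Ctrl libraries, 0.901, 1.35 and 1.54 in WT IR by label, 2.86, 2.36 and 3.02 in cKO Ctrl, and 2.32, 2.59 and 2.35 in cKO IR by label. WT Ctrl was highest and WT IR by label lowest, and the groups labelled cKO overlapped. Il18 was at 2.52, 3.03 and 3.16 CPM in the WT Ctrl libraries, 5.02, 5.93 and 5.80 in WT IR by label, 8.26, 7.64 and 7.47 in cKO Ctrl, and 1.99, 1.80 and 2.52 in cKO IR by label. The low-Lyz2 groups, cKO Ctrl and WT IR by label, were the high ones for Il18. Il23a had 34, 40, 27 and 25 IP counts summed over the 3 libraries of WT Ctrl, WT IR by label, cKO Ctrl and cKO IR by label.

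**Figure D3:**
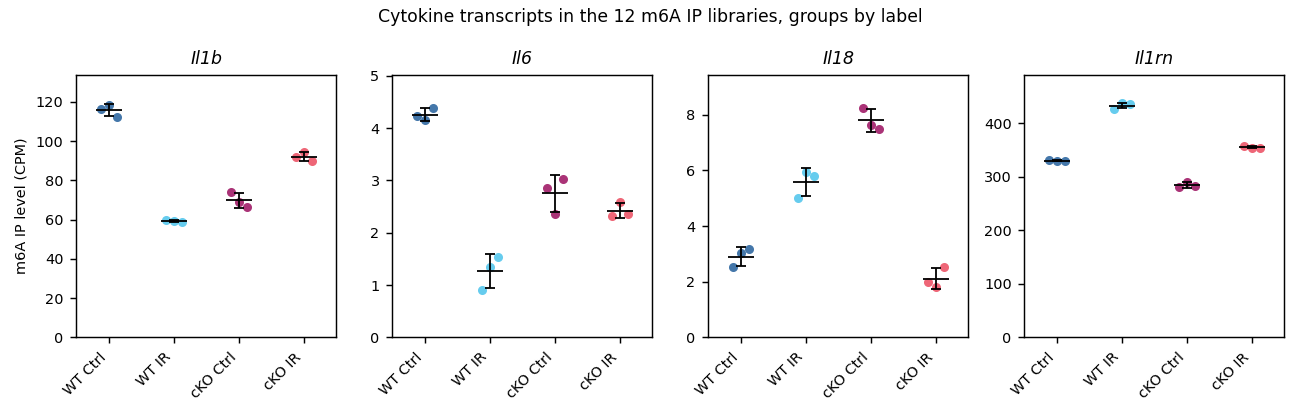
Level in the m6A IP libraries (CPM, vertical axes from 0, one scale per gene) of Il1b, Il6, Il18 and Il1rn in the 4 groups by label, with points for the 3 libraries and bars for the mean ± SD. Il1b and Il6 are highest in WT Ctrl, at 112.3 to 118.4 and 4.16 to 4.39 CPM, Il18 is highest in cKO Ctrl and Il1rn in WT IR by label.

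Against Input, 5 members were higher and 4 lower in the IP of WT Ctrl, beside 38.1% and 37.5% of 17373 tested genes. In cKO Ctrl 4 were higher and 5 lower (37.8% and 36.0% of genes), in WT IR by label 4 and 5 (37.0% and 36.5%) and in cKO IR by label 2 and 6 (36.9% and 36.9%). Il1rn was above 0 in each group, at log2 ratios of 0.82 in WT Ctrl, 0.22 in cKO Ctrl, 1.42 in WT IR by label and 0.64 in cKO IR by label, and Il1b below 0, at −0.37, −1.85, −1.31 and −1.76. Il6 was higher in the IP of WT Ctrl (0.51 ± 0.131 SE, edgeR adjusted p = 0.000795) and lower in the other groups (−0.88, −1.78 and −2.06). Il18 gave −0.19 in WT Ctrl (0.174), and it was higher in cKO Ctrl (0.73) and WT IR by label (1.29) and lower in cKO IR by label (−0.79). With all libraries Il23a was called in WT Ctrl alone (2.27 ± 0.896, 0.0194), with 34 counts in IPs and 6 in Inputs (ratio 5.84, 95% exact binomial interval 2.42 to 17.0), and lost the call without WT Ctrl Input replicate 3 (0.0734) or WT Ctrl IP replicate 1 (0.0738). In WT IR by label Il23a stood at 1.35 (0.123) and was called (2.35, 0.0351) without WT IR Input replicate 1. Averaged over the genotype labels, 4 members were higher and 4 lower in Ctrl (41.0% and 40.3% of genes), and 3 higher and 5 lower in IR (40.1% and 40.2%).

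Set against the Inputs of the other genotype label, which have the matching Lyz2 level, the irradiated IPs gave other values for some members. Il1a was then at −0.32 (edgeR adjusted p = 2.67e-06) in the IPs labelled WT IR and at 0.44 (6.29e-09) in those labelled cKO IR, the reverse of the signs above. Il1b moved to −2.39 and −0.68, Il6 to −3.00 and −0.85, Tnf to −1.56 and −1.09, and Il1rn to 0.92 and 1.13. Osm changed least, to 2.08 and 2.04, and Il12a (−5.92 and −3.47) and Il12b (−5.51 and −4.71) remained negative. Il18 moved to 0.61 (4.93e-05) and −0.12 (0.442).

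**Figure D4:**
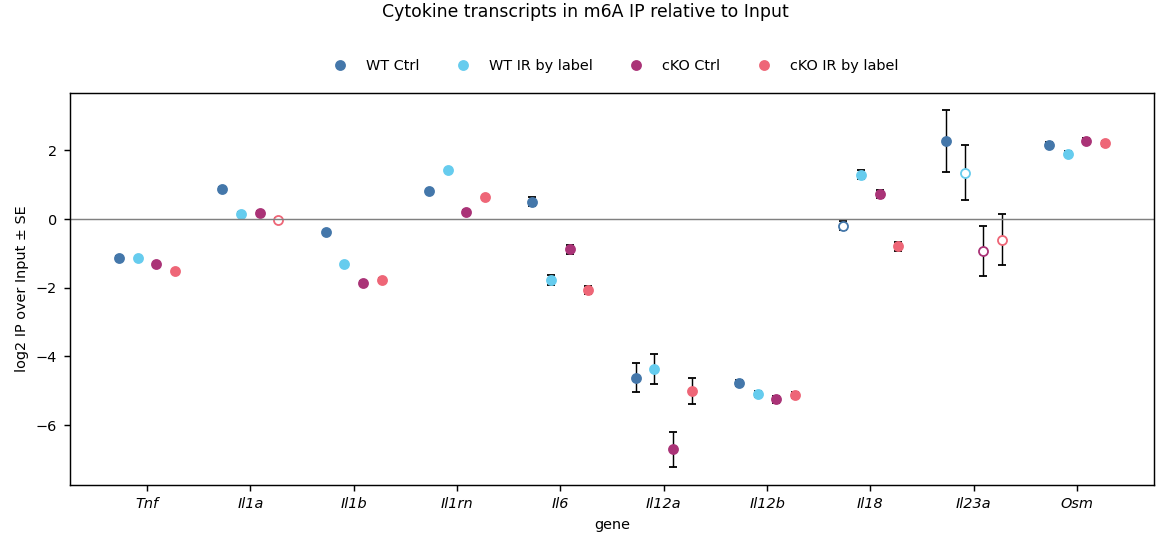
Log2 ratio of IP to Input (vertical axis) for each cytokine gene in the 4 groups, irradiated IPs against the Inputs of the same label, with bars for the SE and filled points for an edgeR adjusted p under 0.05. Osm lies near 2 in each group, Il12a and Il12b lie between −4.37 and −6.71, and Il6, Il1b and Il18 spread widely between groups.

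The IP over Input ratio differed between unirradiated cKO and WT cells for 8 of the 10 members, 1 of them higher in cKO and 7 lower, beside 10.1% of genes called higher and 12.5% called lower. This comparison uses no irradiated library. The log2 difference was −1.48 ± 0.0518 for Il1b (SE, edgeR adjusted p = 2.78e-20), −1.38 ± 0.184 for Il6 (4.13e-07), −0.70 ± 0.0762 for Il1a (7.34e-09), −0.60 ± 0.0546 for Il1rn (1.62e-10), −0.19 ± 0.0489 for Tnf (0.00352) and 0.93 ± 0.177 for Il18 (0.000137). Il1b and Il6 were lower in the cKO IPs and higher in the cKO Inputs, with no overlap of libraries in either. The share of all genes with such a pattern was not counted. Il12b, at −0.48 ± 0.146 (0.0142), lost its call without WT Ctrl IP replicate 1 (−0.26, 0.206) or cKO Ctrl IP replicate 3 (0.0764). Il23a, at −3.18 ± 1.16 (0.0396), lost it (edgeR adjusted p = 0.0634 to 0.155) when WT Ctrl Input replicate 1 or 3, cKO Ctrl Input replicate 1, WT Ctrl IP replicate 1 or 3, or cKO Ctrl IP replicate 2 or 3 was left out. Il12a (−2.09 ± 0.886, 0.0785) and Osm (0.12 ± 0.0928, 0.422) were not called, and Il12a passed without WT Ctrl IP replicate 1 (0.025) or cKO Ctrl IP replicate 2 (0.00277). In the same IPs the 5 dendritic cell markers summed to 346 to 354 CPM in WT Ctrl and 214 to 221 CPM in cKO Ctrl. The 6 macrophage markers summed to 992 to 1010 and 1050 to 1070 CPM, and the 6 neutrophil markers to 575 to 596 and 604 to 632 CPM. The 4 monocyte markers summed to 1670 to 1720 and 1320 to 1410 CPM. In the Inputs the monocyte sums were 1090 to 1100 CPM in WT Ctrl and 1290 to 1300 in cKO Ctrl. The part of these cell types in the result was not tested.

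The ratio was also averaged over both genotype labels, a value that does not change if the labels of the irradiated IPs were exchanged. Whether they were exchanged was not tested, and other differences between IPs and Inputs still enter. The averaged ratio was lower after irradiation for 5 members and higher for 1, beside 23.1% of genes called lower and 25.3% called higher. The log2 difference was −1.74 ± 0.133 for Il6 (SE, edgeR adjusted p = 5.27e-13), −0.48 ± 0.0534 for Il1a (3.05e-09), −0.42 ± 0.0366 for Il1b (1.06e-11), −0.11 ± 0.0346 for Tnf (0.00665), 0.51 ± 0.0386 for Il1rn (4.87e-13) and −0.17 ± 0.0653 for Osm (0.0314). The Osm call was lost in 10 of the fits that left out a library, with edgeR adjusted p values of 0.0535 to 0.0829: WT Ctrl Input replicates 2 and 3, WT IR Input replicate 2, cKO Ctrl Input replicate 1, cKO IR Input replicates 2 and 3, WT Ctrl IP replicate 3, WT IR IP replicate 3, cKO Ctrl IP replicate 2 and cKO IR IP replicate 1. Il12a (0.97, 0.142), Il12b (−0.10, 0.443), Il18 (−0.02, 0.924) and Il23a (−0.30, 0.785) were not called. Il12a passed without WT Ctrl IP replicate 2 (1.61, 0.0164) or cKO Ctrl IP replicate 2 (2.84, 0.00415). The IPs labelled WT IR and cKO IR held neutrophil marker sums of 473 to 483 and 449 to 495 CPM. Dendritic cell marker sums there were 252 to 266 and 505 to 513 CPM, and monocyte marker sums 1770 to 1850 and 2190 to 2210 CPM. Mast cell and basophil markers summed to 2.99 to 3.67 and 3.26 to 3.87 CPM, against at most 0.31 CPM in the irradiated Inputs. Red cell globins were at most 0.108 CPM in every IP, against 24.5 to 26.4 CPM in WT IR Inputs. The part of cell makeup in these ratios was not tested.

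The deposited peak lists, with 13470 to 17608 peaks per IP library, placed m6A peaks on Osm, Il1rn and Il1a, on Il18 in 3 libraries, and on no other member in any library. A consensus peak, present on the gene's strand in all 3 replicates of a group with at least 1 base shared, was found over 3 members in WT Ctrl (27.6% of tested genes), 2 in WT IR by label (23.3%), 3 in cKO Ctrl (25.7%) and 2 in cKO IR by label (20.8%). Osm and Il1rn had one in each group and Il1a in the Ctrl groups, so 3 of the 10 had one in at least 1 group, against 32.7% of genes. Peaks were called per library, and 3 libraries against 3 cannot give an exact permutation p under 0.1, so no test was made. Tnf, Il1b, Il12b and Il6 had counts and no peak, and for Il12a and Il23a the IP counts were too few for a statement.

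In Osm one broad region (chr11:4239261-4240885, plus strand, the last exon) was called in all 12 libraries, with fold enrichments of 4.45 to 8.10. The summits formed 2 sites. In 10 peaks the summit was 20 to 25 bases after the stop codon, in the 3′ UTR, and in 3 it was in the coding part, at −412, −414 and −419 bases from the stop. The 30 bases around the summits contain GGAC, the core of the letters most often methylated, and are shown with it in capitals (plus strand, chr11:4240018-4240047 for the 3′ UTR site and chr11:4239581-4239610 for the coding site).
Osm 3′ UTR site: gtagcctgaGGACacactgacagacagcat
Osm coding site: aagctGGACagtgcccggcacaatatcctc
GGAC was in 11.3% of the same windows around all 189260 peak summits and in 10.4% of 2271868 consecutive transcript windows. A smaller peak in exon 2 of Osm (chr11:4238347-4238513) was called in 4 libraries, with folds of 4.68 to 5.74.

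In Il1rn a region across the stop codon (chr2:24349297-24349931, plus strand) was called in all 12 libraries at low enrichment. The fold was 1.46 to 1.78 in WT Ctrl, 1.82 to 1.97 in WT IR by label, 1.29 to 1.35 in cKO Ctrl and 1.27 to 1.42 in cKO IR by label, and in each library a summit lay between −141 and −114 bases from the stop. In the 6 libraries labelled cKO the peak ended before the stop codon, and in the 6 labelled WT it, or a second peak, reached past it. A second region in the distal 3′ UTR (chr2:24350082-24351210) was called in all 3 libraries of WT Ctrl and all 3 of WT IR by label, with folds of 2.19 to 2.67, and in none of the 6 libraries labelled cKO. This division followed the genotype labels and not the Lyz2 level of the IP libraries. The folds are relative to a control library that is not named. Il1rn Inputs were higher under the cKO label (205.2 to 232.1 CPM) than under WT (139.9 to 178.1 CPM). The IP level itself did not divide by label, with cKO IR by label (353.7 to 357.3 CPM) above WT Ctrl (329.6 to 330.8 CPM). The part of the control in the division was not tested. The 30 bases around the coding summit (chr2:24349475-24349504) and the distal summit (chr2:24350598-24350627) held no GGAC.
Il1rn coding site: cgctctgagaaaggccccaccaccagcttt
Il1rn 3′ UTR site: ctaatcatttcttgaccattcattttatca
One library labelled WT IR, replicate 2, had 2 further Il1rn peaks of 6.09-fold and 4.14-fold with summits outside the exons of the principal transcript.

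Il1a had peaks in 10 libraries, most of them in WT Ctrl. The region around the stop codon and the start of the 3′ UTR (chr2:129300082-129301003, minus strand) was called in 3 libraries of WT Ctrl, 1 of WT IR by label, 3 of cKO Ctrl and 2 of cKO IR by label, with folds of 1.63 to 3.02. Coding exon 5 (chr2:129304755-129304959) carried a peak in all 3 WT Ctrl libraries and in 1 labelled WT IR, with folds of 2.96 to 4.04, and exon 4 (chr2:129306583-129306757) in the 3 WT Ctrl libraries alone, with folds of 1.74 to 2.29. The region at exon 6 (chr2:129302970-129303125) was called in 5 libraries and a distal 3′ UTR region (chr2:129299687-129299949) in 2. Il18 carried a peak in its last coding exon (chr9:50581420-50581702, plus strand) in 2 libraries of cKO Ctrl and 1 of WT IR by label, the groups with its highest IP levels, with folds of 4.76 to 5.76, and a peak outside its principal exons in that same WT IR library. The 30 bases around the exon 5 summit of Il1a (chr2:129304807-129304836, minus strand) and the Il18 summit (chr9:50581511-50581540) are shown. They held no GGAC.
Il1a exon 5 site: acccagatcagcaccttacacctaccagag
Il18 coding site: attgatgatatacaaagtgatctcatattc

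**Figure D5:**
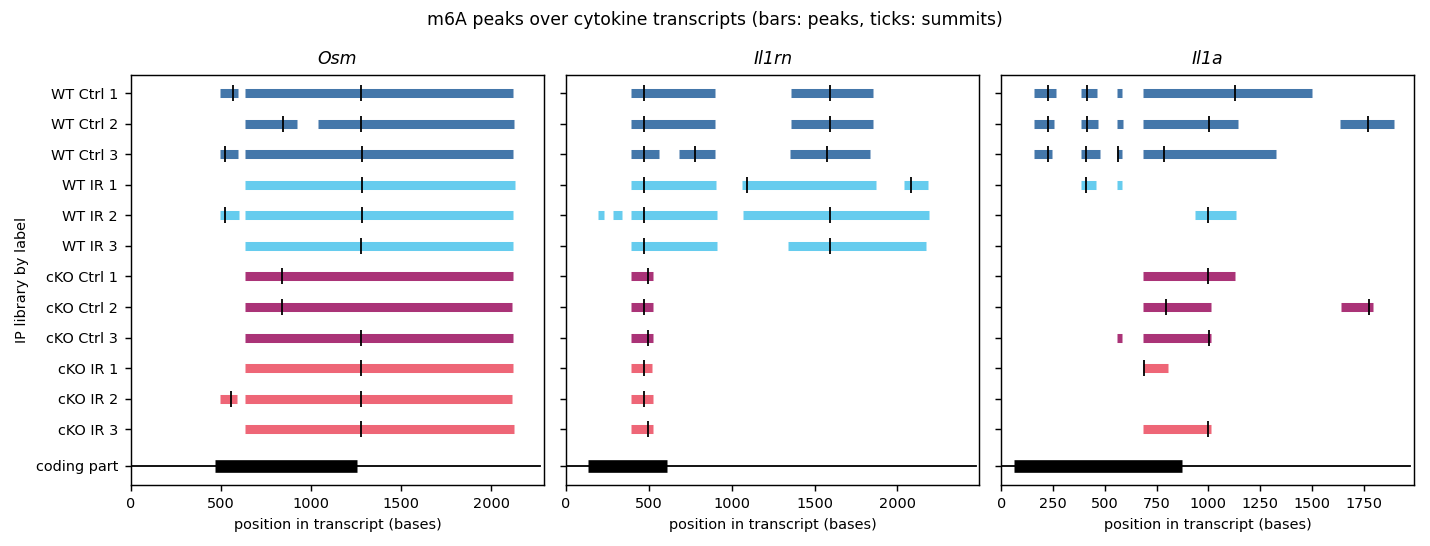
Peaks over the principal transcripts of Osm, Il1rn and Il1a (horizontal axes, position in bases from the transcript start, introns removed) in the 12 IP libraries by label, with bars for peaks, ticks for summits and the coding part drawn below. Osm has the same broad region in all 12 libraries, the distal Il1rn region is present in the 6 libraries labelled WT and absent from the 6 labelled cKO, and Il1a has the most peaks in WT Ctrl.

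The letters GGACT, a fuller form of the m6A motif, occurred 5 times in the Il23a transcript, 4 in Il12b, 3 in Tnf and Osm, 2 in Il1b and Il18, 1 in Il1a, Il6 and Il12a and not at all in Il1rn, counted on the sense strand. At least 1 copy was in 91.6% of transcripts of 13314 genes, with a median of 1.06 per kilobase. Il12b, at 2.06 per kilobase, had no peak and one of the lowest ratios of IP to Input, while Il1rn, without a copy, had a peak in every library.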

How the data were processed

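Each count file as deposited holds raw counts by gene identifier for a single library, neither normalized nor pooled. By the study's methods and the submitters' processing notes, the authors used Trimmomatic 0.39 for trimming, HISAT with strand-specific settings for alignment to mm10 (GRCm38, GENCODE vM19), HTSeq for gene counts, and MACS2 for peaks, called separately for each IP library and strand. In the peak lists as deposited the authors' caller gives a ratio (fold enrichment over a control library), a −log10 p-value, a −log10 q-value and a score. The Input that was the control of an IP is not given in the sources used here, nor whether an Input and an IP came from one RNA pool.

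Groups came from the labels, with 3 libraries in each of 8 groups. The 10 members, the lists and the tests were chosen with earlier results of these data known. Of 54446 identifiers, 54409 matched GENCODE vM21, which gave positions and exons; the principal transcript of each gene supplied UTRs. Levels of single genes are CPM over the genes passing the count filter, scaled by TMM. Inputs were scaled in the fit of the 12 Inputs (factors 0.974 to 1.02) and IPs in that of all 24 libraries (0.903 to 1.11). An Input level and an IP level are therefore not on exactly the same scale. Marker sums are CPM of all gene counts without TMM. HTSeq's summary lines were left out (2.86% to 6.55% of a library in no gene, 2.19% to 2.58% ambiguous, 3.34% to 3.83% aligned more than once). Fold changes come from the fits and can differ from ratios of CPM. Changes were fitted in edgeR 4.0.16 (R 4.3.3; quasi-likelihood F test, TMM scaling) over genes reaching 10 counts in 3 or more libraries, one fit for the 12 Inputs and one for all 24 libraries, and Benjamini-Hochberg adjustment over all genes tested (called under 0.05). The fits were tested on simulated data. Alternatives were DESeq2 1.42.0, its size factors, no filter or a stricter filter (50 counts), libraries of the contrast alone, a replicate block, each library left out, and the other genotype's irradiated Inputs. The replicate numbers did not pair the libraries (deviations correlated above 0.1 in 4 of 84 pairs). All members were named; from each list, the 3 called genes of lowest adjusted p; and for each member, the 3 genes of highest r over the Inputs. Library totals of 65180075 to 86421888 counts leave Il23a and Il12a limited by counting error.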

Additional observations from a re-analysis of the deposited data

Results flagged for a closer look

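These results were picked out because an effect differed between groups by a test of the difference itself, all with edgeR's quasi-likelihood test on 3 libraries a group. The irradiation effect in Inputs was larger in cKO than in WT by 0.27 for Tnf (adjusted p = 0.00024), 0.34 for Il1b (3.99e-05), 0.47 for Il6 (0.0159), 1.01 for Il12a (0.00241) and 0.19 for Il12b (0.0114) on the log2 scale. The log2 ratio of IP to Input in unirradiated cells, cKO minus WT, was −0.19 for Tnf (adjusted p = 0.00352), −0.70 for Il1a (7.34e-09), −1.48 for Il1b (2.78e-20), −0.60 for Il1rn (1.62e-10), −1.38 for Il6 (4.13e-07), −0.48 for Il12b (0.0142), 0.93 for Il18 (0.000137) and −3.18 for Il23a (0.0396). The Il23a call was lost in 9 of its 28 alternatives and the Il12b call in 2 of 28. Il23a had 45 counts in the cKO Ctrl Inputs and 6 in the WT Ctrl Inputs. The ratio of IP to Input, irradiated minus unirradiated over both genotype labels, was −0.11 for Tnf (adjusted p = 0.00665), −0.48 for Il1a (3.05e-09), −0.42 for Il1b (1.06e-11), 0.51 for Il1rn (4.87e-13), −1.74 for Il6 (5.27e-13) and −0.17 for Osm (0.0314). This Osm call was lost in 12 of its 28 alternatives. The genotype labels behind the first 2 groups of results go with Ythdf2 and Lyz2 levels as given in the report.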

How the results depend on the processing

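Counts of members called stayed within 1.5 times their value in 317 of 318 alternatives. The exception was the number of members with a consensus peak, which fell from 3 to 1, Osm, when the authors' fold had to reach 4. It was 4 with Il18 when 2 of 3 replicates sufficed. Leaving out each library in turn gave 5 to 6 members called in WT IR vs WT Ctrl, 6 to 8 in cKO IR vs cKO Ctrl, 7 to 9 in cKO Ctrl vs WT Ctrl and 5 to 7 in the interaction. For the cKO minus WT ratio of IP to Input in Ctrl it gave 6 to 8, against 8 with all libraries. The replicate block, tried although same-numbered libraries did not deviate together (r of −0.286 to 0.135, none of 28 group pairs all above 0.1), gave 5, 7, 9, 5 and 7 in the same order. With the block Osm in WT IR vs WT Ctrl stood at 0.25 (edgeR adjusted p = 0.0674) and Il23a in the cKO minus WT ratio at −3.10 (0.0535), and it changed no other call on a member. In the lists around the cytokines it left 3 instead of 4 receptors called in cKO IR vs WT IR, 7 instead of 8 processing genes in cKO IR vs cKO Ctrl, and 6 instead of 7 decay factors in WT IR vs WT Ctrl and in the interaction. Where a single call changed, the cause was not tested. Without the count filter Il18 in cKO IR vs cKO Ctrl had an adjusted p of 0.0548, Tnf in WT IR vs WT Ctrl was −0.0027 and Il1a in cKO IR by label 0.00014. Under DESeq2's size factors in edgeR the IP over Input ratio of Il1a in WT IR by label (0.11, adjusted p = 0.0716) and the Osm ratio in IR minus Ctrl (−0.15, 0.0571) were not called, and without the count filter the latter had an adjusted p of 0.126. The other genotype's Inputs turned Il1a to −0.32 and 0.44 and Il23a to 0.57. Changes near 0 took either sign when each library was left out in turn: Tnf (−0.0228 to 0.0245) and Il1b (−0.0490 to 0.0116) in WT IR vs WT Ctrl, Osm in the interaction (−0.0968 to 0.0348), Il23a in cKO IR vs cKO Ctrl (−0.825 to 0.219), over both IR groups (−0.0814 to 0.874) and in IR minus Ctrl (−0.749 to 0.198), and in IR minus Ctrl also Il18 (−0.0948 to 0.0344) and Il12b (−0.164 to 0.0243). Depth limits Il23a, with at most 26 counts per library, and Il12a in the IPs, with at most 12.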
